A study of Homo sapiens with 18 samples.

Results

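Untreated K562 cells expressing CALRins5 were compared with untreated K562 cells expressing CALRdel52, as 3 arrays of each, 6 of the 18 arrays of the series. Members were chosen by the sample labels alone, through the retroviral vector and the absence of Melittin (MEL), the membrane-active peptide of bee venom that the study used to induce oxidative stress. K562 is a human chronic myelogenous leukemia line with erythroid features. All cells carried a retroviral vector, either LCALRins5IDN, LCALRdel52IDN or LCALRwtIDN (wild-type CALR, CALRwt), and were purified through the NGFR marker, so that each group is a transduced population that also kept its own CALR genes. The 3 untreated CALRwt arrays entered the same model, and the 6 arrays of both mutants exposed to MEL at 5 μg/mL for 24 hours gave the same comparison in other arrays. The labels speak of 3 independent experiments. They give the untreated cells once as cultured for 24 hours and once as lysed directly after sorting, so their time in culture is uncertain.

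Calreticulin is a calcium-binding chaperone of the endoplasmic reticulum (ER) that assists the folding of glycoproteins. The del52 deletion and the ins5 insertion are the most frequent CALR lesions of myeloproliferative neoplasms. Both shift the reading frame of the last exon and replace the acidic, calcium-binding tail and its KDEL retrieval signal with the same new sequence, but the deletion removes more of the acidic stretch than the insertion does. The comparison therefore asks which transcripts differ between cells carrying either type of mutation when no drug is given.

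Between the mutants, genes of cholesterol and fatty acid synthesis were higher in CALRins5 cells, while TCN1, ABCB1, COL6A3 and other genes described below were lower. Of 54613 probe sets, 171 (0.313%) were higher and 282 (0.516%) were lower in CALRins5 at an adjusted p under 0.05 in limma, together 0.829% of all. At an unadjusted p under 0.01 the share was 4.53%, and for 17.3% of all probe sets the arrays of the mutants did not overlap. The called probe sets named 324 genes (1.64% of 19775), 201 of them lower and the others higher, and no gene had called probe sets in both directions. With each gene taken by its brightest probe set, 1.14% of genes passed. The differences were small: the median was 0.50 on the log2 scale for probe sets that were higher and -0.54 for those that were lower, and 2 and 15 respectively passed 1. With any single mutant array left out, 80 to 134 probe sets passed, except without CALRdel52 replicate 3, when 1135 did. Against CALRwt far fewer probe sets passed, 5 of 54613 (0.00916%, all lower) for CALRins5 and 20 (0.0366%) for CALRdel52, of which 16 were higher (0.0293%) and 4 lower (0.00732%).

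The median log2 values of the untreated arrays were 4.56 to 4.6. For GAPDH the 3' end read 0.31 to 0.41 above the 5' end, a gap that widens as RNA degrades. For ACTB the same gap was 0.74 to 1.10 over all untreated arrays. It was 0.76, 0.885 and 0.887 on the CALRins5 arrays and 0.99, 0.96 and 0.74 on the CALRdel52 arrays, so these groups overlapped. The median correlation of an array with the other untreated arrays was 0.9936 to 0.9965, lowest for CALRdel52 replicate 2. That array also lay apart on the first principal component (29.0% of the variance), at -44.3 against -21.5 and 9.53 for the other CALRdel52 arrays. No difference between the mutants was shown on the first component (exact permutation test, two-sided, p = 0.2, where 3 arrays against 3 allow no p under 0.1). The 7 measured markers of K562 cells, among them the embryonic globins HBE1 and HBZ, GATA1, TAL1 and TFRC, had levels of 8.54 to 12.2. Of them GFI1B, described below, was the member that differed between the mutants. Of the 6 monocyte and macrophage markers only LYZ differed, and the mean level of the 6 spanned 5.05 to 5.16 on the CALRins5 arrays and 5.14 to 5.21 on the CALRdel52 arrays. CD14, CSF1R, ITGAM, CD163 and MARCO stayed between 3.45 and 4.93 in the group means.

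CALR itself did not differ detectably. Its brightest probe set was at 6.17, 6.19 and 6.28 in CALRins5, at 6.18, 6.39 and 6.02 in CALRdel52 and at 5.84, 5.82 and 5.75 in CALRwt. The mutant groups overlapped, with a difference of 0.02 ± 0.10 (SE, adjusted p = 0.972). The other 2 CALR probe sets were dimmer, with group means of 3.11 to 3.88. Whether these probe sets lie in the part of the transcript that the vectors carry is unknown, so the values do not check the labels.

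Cells make cholesterol from acetyl-CoA through the mevalonate pathway and fatty acids through acetyl-CoA carboxylase and fatty acid synthase. Both pathways are switched on together by the SREBP transcription factors, which are held in the ER by INSIG proteins while sterols are abundant and are escorted to the Golgi by SCAP when sterols are scarce. NF-Y, a factor that binds CCAAT boxes, is known to act beside SREBP at many of these promoters.

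Of the 27 measured genes of sterol and fatty acid synthesis, 10 were higher in CALRins5 and 0 were lower, which is 37.0% of them against 0.425% of all 19775 genes taken by their brightest probe set. 24 of the 27 differences lay above 0, with a median of 0.39 against 0.01 over all genes, or 0.24 when all probe sets of a gene were averaged. The mean level of the list was 8.58, 8.57 and 8.57 on the CALRins5 arrays, 8.20, 8.30 and 8.20 on the CALRdel52 arrays and 8.36, 8.37 and 8.35 on the CALRwt arrays. The 3 groups did not overlap, and CALRwt lay between the mutants. For 17 genes (63.0%) no CALRins5 array overlapped a CALRdel52 array, against 20.3% of all genes and 26.5% of genes above the array median. Over the other gene lists described below this share ran from 6.67% (BCL2 family) to 53.3% (heat shock genes). It was 48.4% for the ATF4 and CHOP programme and 45.2% for ER chaperone and ER-associated degradation genes. With single arrays left out, 3 of the genes passed without any one CALRins5 array or CALRdel52 replicate 1, 5 without CALRdel52 replicate 2 and 9 without CALRdel52 replicate 3, and the median was between 0.34 and 0.40. With the replicate number as a block 6 genes passed, as with each array centred or without moderation, and 3 passed with the 6 mutant arrays only.

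**Figure D1:**
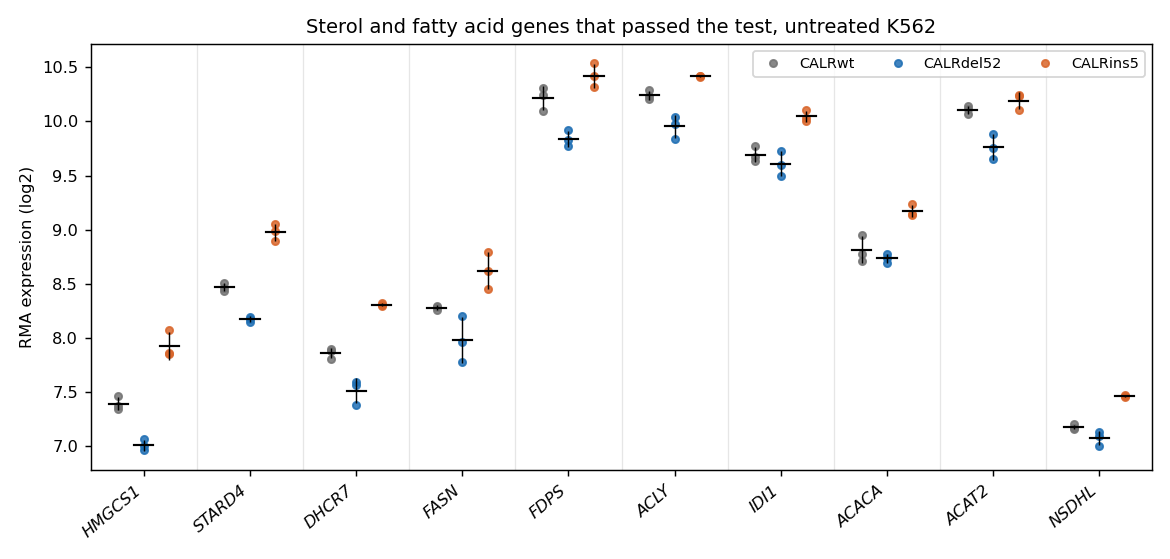
Log2 expression (vertical axis) of the 10 sterol and fatty acid genes that passed the test, each by its brightest probe set, in untreated cells. Points are arrays (3 per vector), horizontal bars are group means and vertical lines are 1 SD. CALRins5 points lie above CALRdel52 points for each gene, and the CALRwt mean lies between the 2 mutant means for all 10. It did so for 20 of the 27 measured genes, for 95.9% of all probe sets called higher and for 39.4% of all probe sets.

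HMGCS1, which condenses acetyl-CoA units at the entry of the mevalonate pathway, showed the largest difference of the list. Its brightest probe set was at 7.86, 7.85 and 8.07 in CALRins5 and at 7.0, 6.96 and 7.06 in CALRdel52, with CALRwt at 7.37, 7.35 and 7.46. No arrays overlapped, and the difference was 0.92 ± 0.09 (SE, adjusted p = 0.00154). Its second probe set differed by 1.02, a 2.02-fold higher value. Upstream of it, ACAT2, which makes acetoacetyl-CoA, was higher by 0.43. Downstream, IDI1, the isomerase that makes the second isoprenoid building block, was higher by 0.44 although 2 of its 4 probe sets had the opposite sign, and FDPS, which joins the building blocks to farnesyl diphosphate, was higher by 0.58. FDPS was at 10.42, 10.32 and 10.54 in CALRins5 and at 9.78, 9.92 and 9.82 in CALRdel52. The mevalonate kinases between them did not pass, with 0.10 for MVK and 0.12 for PMVK, and the decarboxylase MVD was at 0.40 (adjusted p = 0.252).

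Among the enzymes that turn squalene into cholesterol, the last step differed most. DHCR7, which reduces the final precursor to cholesterol, was at 8.30, 8.31 and 8.32 in CALRins5 and at 7.38, 7.59 and 7.57 in CALRdel52. The CALRins5 arrays were almost equal and all above the CALRdel52 arrays, with a difference of 0.80 ± 0.08 (SE, adjusted p = 0.00244). NSDHL, which removes the methyl groups at carbon 4 together with MSMO1, was higher by 0.39. SQLE, the oxidase that commits squalene to sterols, differed by -0.12, MSMO1 by -0.03 and HSD17B7 by 0.02, and none of these passed. LSS (0.36, adjusted p = 0.108) and EBP (0.32, adjusted p = 0.090) did not pass either, though their CALRins5 arrays lay above the CALRdel52 arrays.

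STARD4, a cytosolic carrier of cholesterol, was at 8.89, 9.05 and 8.99 in CALRins5 and at 8.20, 8.17 and 8.14 in CALRdel52. CALRwt lay between, at 8.51, 8.43 and 8.46, and the mutants differed by 0.80 ± 0.08 (SE, adjusted p = 0.00154). SCARB1, the receptor for high density lipoprotein, which is not in the list, was at 8.33, 8.20 and 8.20 against 7.32, 7.54 and 7.29. It was higher in CALRins5 by 0.86 ± 0.09 (SE, adjusted p = 0.00259), with 3 of 5 probe sets passing.

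Of the fatty acid genes, FASN, the synthase, was higher by 0.64, ACLY, which supplies cytosolic acetyl-CoA, by 0.46, and ACACA, the carboxylase, by 0.43. The second, dimmer FASN probe set differed by -0.03. SCD, the desaturase that makes oleate, was higher in 3 of its 4 probe sets, the largest by 0.89, whereas the brightest stood at 0.41 (adjusted p = 0.066). ELOVL6 (0.32, adjusted p = 0.080) and FADS2 (0.06) did not pass. ACLY was at 10.41, 10.42 and 10.41 in CALRins5 and at 9.98, 10.04 and 9.84 in CALRdel52.

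None of the SREBP regulators passed by its brightest probe set. INSIG1, itself a sterol-responsive gene, was higher in 2 of its 3 probe sets, but its brightest was at 0.43 (adjusted p = 0.127). SREBF1 stood at 0.42 (adjusted p = 0.204), SREBF2 at -0.07 and SCAP at 0.12. Against CALRwt, 0 of the 27 genes passed in limma for either mutant (12 for CALRins5 and 11 for CALRdel52 at an unadjusted p under 0.05).

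**Figure D2:**
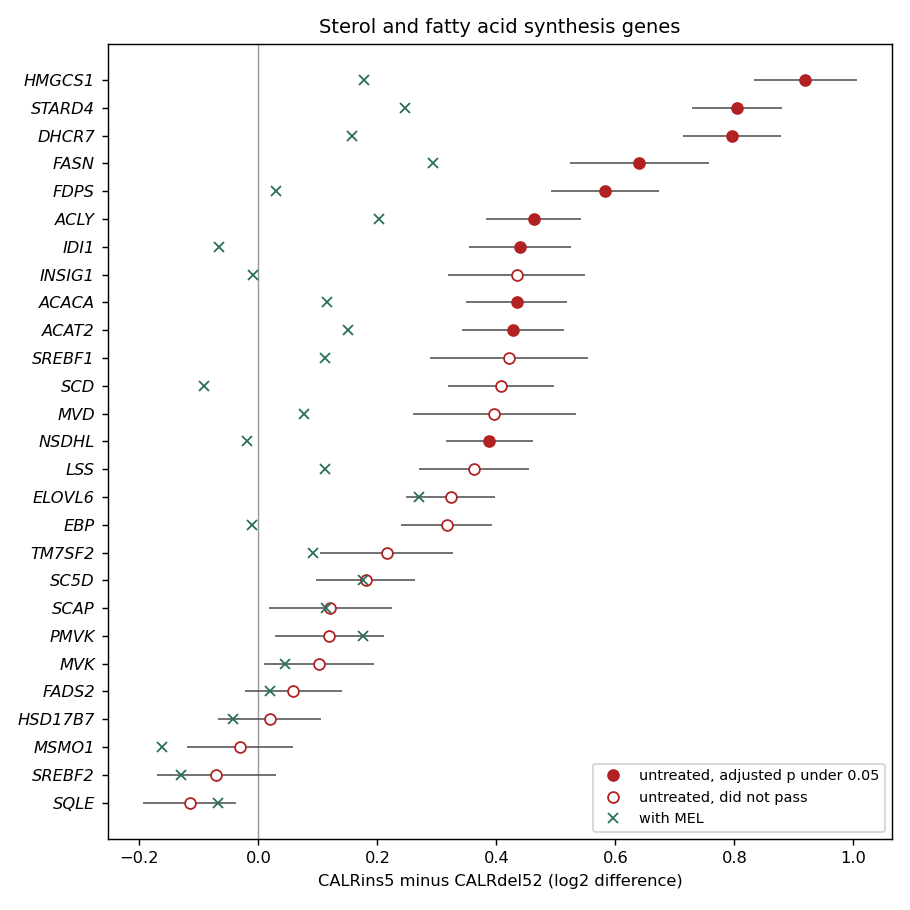
Log2 difference CALRins5 minus CALRdel52 (horizontal axis) of the 27 measured sterol and fatty acid genes, by their brightest probe set. Circles are untreated cells with 1 SE, filled where the adjusted p was under 0.05, and crosses are the same difference with MEL. 24 circles lie right of 0, and 10 are filled.

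The stretch before the start is shown for 5 of the genes that were higher, chosen because they hold CCAAT letters in it. ACACA, which was also higher, held 0 of them in the stretch of the same length before its most upstream start. IDI1 and DHCR7, also higher and with CCAAT in the 250 bases before a listed start, are not shown. Sequences are the 150 bases before the most upstream start listed for each gene by RefSeq (GRCh38.p14), 5′ to 3′ in the direction of transcription, with CCAAT on either strand (CCAAT or ATTGG) in capitals. The regions are chr5:43313413-43313562 on the minus strand for HMGCS1, chr1:155308716-155308865 on the plus strand for FDPS, chrX:152830913-152831062 on the plus strand for NSDHL, chr5:111512536-111512685 on the minus strand for STARD4 and chr17:41919023-41919172 on the minus strand for ACLY.
HMGCS1: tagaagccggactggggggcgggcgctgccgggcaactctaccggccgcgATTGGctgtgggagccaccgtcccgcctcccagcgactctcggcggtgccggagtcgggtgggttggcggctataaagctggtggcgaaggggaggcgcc
FDPS: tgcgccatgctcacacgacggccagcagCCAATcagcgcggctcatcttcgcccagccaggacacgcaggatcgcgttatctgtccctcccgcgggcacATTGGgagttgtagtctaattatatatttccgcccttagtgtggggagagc
NSDHL: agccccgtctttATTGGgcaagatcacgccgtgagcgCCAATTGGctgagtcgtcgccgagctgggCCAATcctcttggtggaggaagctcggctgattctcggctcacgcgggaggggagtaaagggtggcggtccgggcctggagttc
STARD4: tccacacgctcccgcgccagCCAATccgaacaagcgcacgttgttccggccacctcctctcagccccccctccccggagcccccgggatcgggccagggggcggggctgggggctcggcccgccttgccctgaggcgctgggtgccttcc
ACLY: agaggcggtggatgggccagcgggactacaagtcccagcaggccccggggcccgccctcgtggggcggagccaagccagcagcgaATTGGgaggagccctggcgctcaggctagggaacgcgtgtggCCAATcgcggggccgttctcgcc
In the 250 bases before any listed start, CCAAT was found on either strand for 19 of the 24 list genes with a sequence (79.2%) and for all 8 of those that were higher in CALRins5, against 10102 of 27305 genes overall (37%). The members without it, PMVK, SREBF1, SCAP, ELOVL6 and FADS2, did not pass. Others that held it did not pass either, among them MSMO1, HSD17B7 and SREBF2. FASN and ACAT2 had no sequence in the table used. The letters TCACNCCAC, one form of the sterol regulatory element, were found for 1 of the 24 (4.17%), SREBF2, and for 1.09% of all genes. Neither motif contains the other. A match describes these letters in this window and not a bound site.

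The largest differences belonged to genes that were lower in CALRins5. TCN1, the vitamin B12 binding protein of granulocyte granules, was at 8.60, 8.56 and 8.60 in CALRins5, at 9.96, 10.02 and 10.00 in CALRdel52 and at 8.89, 8.63 and 8.74 in CALRwt. CALRdel52 stood alone above both other groups. TCN1 was 2.65-fold lower in CALRins5 than in CALRdel52, a log2 difference of -1.40 ± 0.08 (SE, adjusted p = 0.000113), and CALRdel52 was above CALRwt by 1.24 (adjusted p = 0.000437) while CALRins5 stood at -0.16 from it.

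ABCB1, the multidrug efflux pump P-glycoprotein, showed the other arrangement. It was at 3.69, 3.92 and 3.68 in CALRins5, at 5.12, 5.13 and 5.17 in CALRdel52 and at 5.05, 4.73 and 4.80 in CALRwt, so that here CALRins5 stood apart. It was lower in CALRins5 (-1.38 ± 0.10 on the log2 scale, SE, adjusted p = 0.000612), with -1.09 from CALRwt (adjusted p = 0.0117) and 0.28 between CALRdel52 and CALRwt (adjusted p = 0.436). The level in CALRins5 was below the array medians, as it was for CREB5 and ENC1 below. Without detection calls in the values used, no fold is given for ABCB1. A second, dimmer ABCB1 probe set differed by -0.32 and did not pass.

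Of the other genes of the lowest 15, some shared one of these arrangements and some neither. COL6A3, a chain of the matrix collagen VI, HMCN1, a large matrix protein, SCIN, an actin-severing protein, KCNG1, a potassium channel subunit, and ANXA3, a calcium-dependent membrane-binding annexin, were each above CALRwt in CALRdel52, by 0.97, 0.71, 0.70, 0.98 and 0.72 in that order, with adjusted p of 0.0291 to 0.0473. None of these 5 differed from CALRwt in CALRins5 at that threshold. COL6A3 was at 7.80, 7.63 and 7.37 in CALRins5, at 8.96, 8.97 and 8.65 in CALRdel52 and at 7.98, 7.93 and 7.77 in CALRwt. ANXA3 was at 8.14, 8.21 and 8.10 against 9.04, 9.06 and 9.13, and CALRwt stood between at 8.49, 8.23 and 8.35. In both genes CALRdel52 lay above the other groups on each array.

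ENPP3, a surface phosphodiesterase known from basophils, and CREB5, a transcription factor of the CREB family, were instead below CALRwt in CALRins5, with differences of -0.75 (adjusted p = 0.0358) and -0.98 (adjusted p = 0.0117). CREB5 was at 4.12, 4.25 and 4.01 in CALRins5, at 5.22, 5.01 and 5.27 in CALRdel52 and at 5.14, 5.13 and 5.05 in CALRwt. The last pair of groups overlapped. CALB1, a calcium buffer, ENC1, an actin-binding kelch protein, MTCL1, which crosslinks microtubules, CYP3A5, a cytochrome P450, and the long noncoding RNAs LINC01300 and LINC00656 were lower in CALRins5 than in CALRdel52, with differences of -1.19 to -0.94, and neither mutant differed from CALRwt past the threshold. For CYP3A5 1 of 4 probe sets passed, and the brightest was at -0.26 (adjusted p = 0.604).

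**Figure D3:**
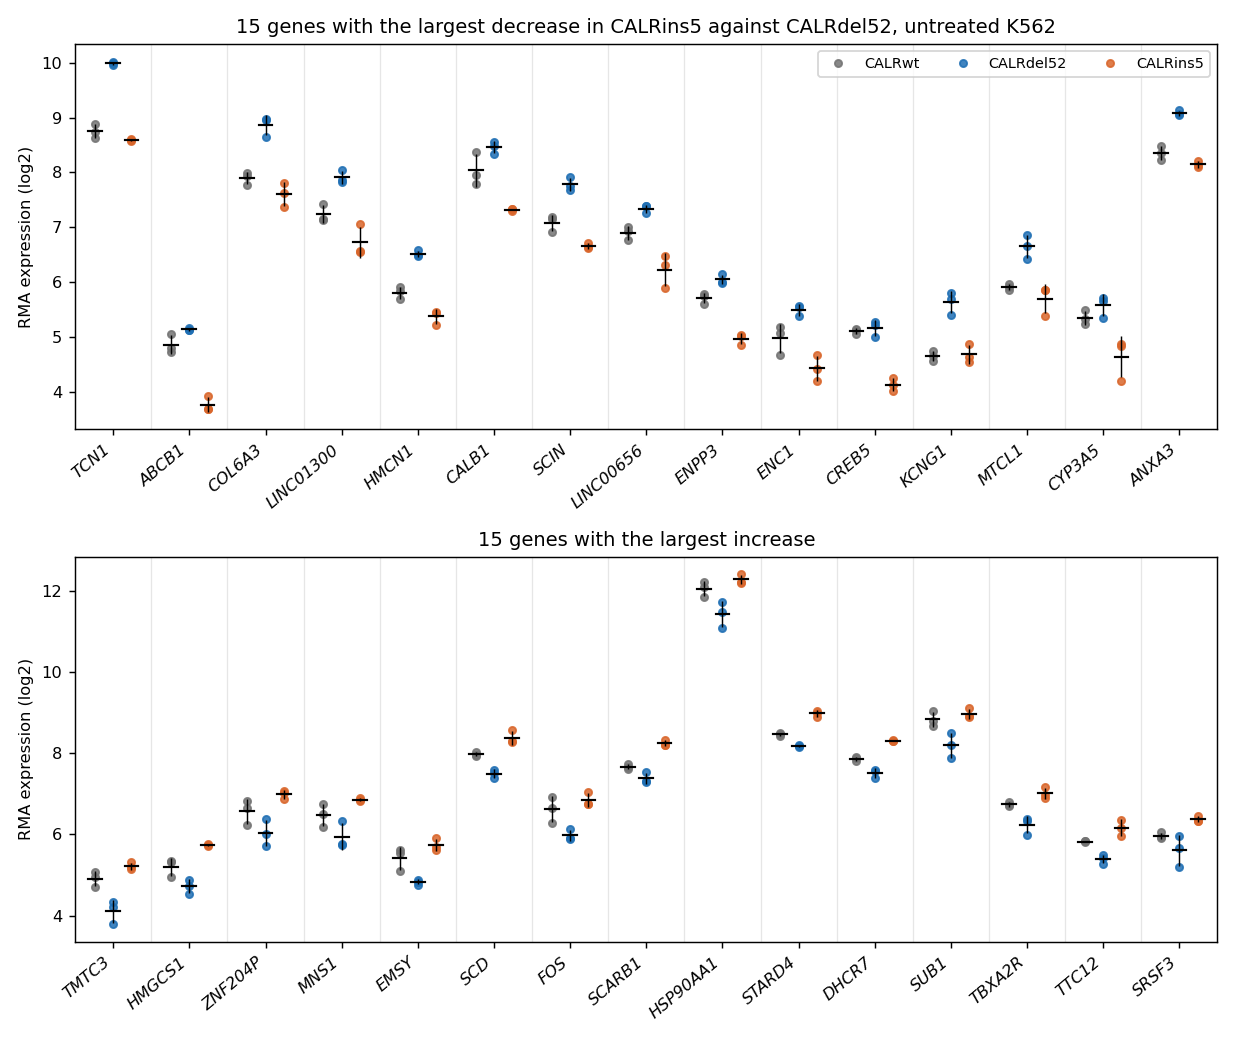
Log2 expression (vertical axes) of the 15 genes with the largest decrease (top) and the 15 with the largest increase (bottom) in CALRins5 against CALRdel52 in untreated cells, each by the probe set with the largest difference. Points are arrays, horizontal bars are group means and vertical lines are 1 SD. TCN1 is high in CALRdel52 alone, and ABCB1 is low in CALRins5 alone.

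Among the 15 highest, HSP90AA1, the stress-inducible cytosolic HSP90, was measured by 4 probe sets that were all higher in CALRins5. The one with the largest difference was at 12.20, 12.22 and 12.41 in CALRins5, at 11.47, 11.07 and 11.72 in CALRdel52 and at 12.08, 11.84 and 12.22 in CALRwt. CALRdel52 was the low group and its arrays spread most. The difference was 0.85 ± 0.15 (SE, adjusted p = 0.0319), and it did not pass against CALRwt for either mutant (adjusted p = 0.892 and 0.213). FOS, an immediate early factor of the AP-1 complex, was at 7.04, 6.76 and 6.74 against 6.14, 5.89 and 5.92, and was higher by 0.86.

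Several of the remaining increases were seen in only some probe sets of a gene. EMSY, a chromatin-associated protein, passed with 1 of 6 probe sets and its brightest was at 0.11 (adjusted p = 0.730). SUB1, a transcriptional coactivator, and SRSF3, a splicing factor, each passed with 2 of 6 probe sets, but their brightest were at 0.21 and 0.33 and did not pass, and that of TMTC3, an ER mannosyltransferase, was at 0.74 (adjusted p = 0.262). TBXA2R, the thromboxane receptor of platelets, and TTC12, a dynein assembly factor, each passed with 1 of 4 probe sets, by 0.77. The pseudogene ZNF204P and MNS1, a cilia protein, were higher by 0.95 and 0.91 in their sole probe sets.

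Of the 42 named genes that passed, 18 also passed with each of the 6 mutant arrays left out in turn. These were ABCB1, ANXA3, CALB1, COL6A3, CREB5, ENPP3, HMCN1, KCNG1, LINC00656, LINC01300, SCIN and TCN1 among the lower genes and DHCR7, HMGCS1, SCARB1, SCD, STARD4 and TMTC3 among the higher ones. For TMTC3 this was 1 of 3 probe sets, with a CALRdel52 mean of 4.11, below the array medians. Without CALRdel52 replicate 3 all 42 passed, and without any other single array 20 to 25 did. Most of these genes were picked for large differences on the same arrays. Of all 453 calls, 399 were kept without CALRdel52 replicate 3 and 78 to 129 without any other single mutant array. With 1 replicate number left out, 0 to 10 probe sets passed in all.

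The ER stress genes that the study is concerned with are given beside all genes, of which 1.14% passed in either direction. Of 31 ER chaperone and ER-associated degradation genes, 0 passed in limma by their brightest probe sets (8 at an unadjusted p under 0.05, against 14% of all genes), and the median difference was -0.00. HSPA5, the main luminal chaperone, was at 11.84, 11.70 and 11.66 in CALRins5 and at 12.003, 11.99 and 11.83 in CALRdel52, where the lowest CALRdel52 array lay just under the highest CALRins5 array (-0.21, adjusted p = 0.365). DNAJB9, its co-chaperone, was at 8.18, 8.22 and 8.27 against 8.48, 8.52 and 8.60, without overlap. Its difference of -0.31 did not pass (adjusted p = 0.106), while 1 of its 3 probe sets did, at -0.47 (adjusted p = 0.0461).

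Of 12 stress sensors and their partners, 0 passed in limma (4 at an unadjusted p under 0.05). XBP1, the factor spliced by IRE1, was at -0.35 (adjusted p = 0.084), ERN1, which encodes IRE1, at -0.21, EIF2AK3, which encodes PERK, at -0.22, ATF6 at -0.13 and EIF2S1, the eIF2alpha subunit, at 0.23. XBP1 and EIF2S1 passed in 2 of 18 alternatives each, as did DNAJB9, with lowest adjusted p of 0.00711, 0.0208 and 0.0249. These are levels of total transcript and do not measure splicing or phosphorylation. Of 35 translocon, glycosylation and COPII genes 0 passed (2 at an unadjusted p under 0.05).

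Of 31 genes of the ATF4 and CHOP programme, which PERK signaling induces, 2 were lower in CALRins5 (6.45%, against 0.718% of all genes) and 0 were higher. An unadjusted p under 0.05 in limma was found for 12 of the 31, against 14% of all genes. NUPR1, a stress-induced chromatin protein, was at 5.43, 5.46 and 5.70 against 6.11, 6.17 and 6.06, and was lower by a log2 difference of -0.58 ± 0.10 (SE, adjusted p = 0.0239). PSPH, the last enzyme of serine synthesis, was lower with -0.55 (adjusted p = 0.0421, or 0.0521 with the replicate number as a block). ATF4 itself was at -0.03, DDIT3, which encodes CHOP, at 0.10 and PPP1R15A, the phosphatase subunit that reverses eIF2alpha phosphorylation, at -0.08. The mean level of the list was 10.34, 10.27 and 10.27 on the CALRins5 arrays and 10.43, 10.46 and 10.39 on the CALRdel52 arrays, with a median difference of -0.10.

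Of 15 heat shock genes HSP90AA1 alone passed (6.67%, against 0.425% of all genes higher). The list median was 0.13, and 11 of 15 differences lay above 0. An unadjusted p under 0.05 in limma was found for 6 of the 15, against 14% of all genes. Of 20 calcium store and entry genes 1 was lower, ATP2C1, the Golgi calcium and manganese pump, at -0.63 (adjusted p = 0.0459, or 0.0636 with the block) in a gene where 2 of 4 probe sets had the opposite sign. Of 24 antioxidant genes and 31 NRF2 genes 0 passed in limma (4 and 8 at an unadjusted p under 0.05). GCLM, a subunit of the enzyme that starts glutathione synthesis, stood at -0.39 (adjusted p = 0.0666), and 1 of its 3 probe sets passed. OXR1, an oxidation resistance gene, was at 0.26 (adjusted p = 0.438), SOD1 at 0.24 (adjusted p = 0.214, passing in 1 of 18 alternatives), SOD2 at 0.04 and GSR at 0.02. Of 27 homologous recombination, 27 other repair and 38 replication and cell cycle genes 0 passed (5, 7 and 11 at an unadjusted p under 0.05), and H2AX, the histone phosphorylated at DNA breaks, was at -0.17.

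Single members passed in several of the remaining lists, beside 0.718% of all genes that were lower and 1.14% in either direction. CDKN1A, the p53-induced cell cycle inhibitor p21, was lower in CALRins5 with -0.44 (adjusted p = 0.0484), 1 of 21 p53 genes. EPAS1, the hypoxia-inducible factor HIF-2alpha, was at 9.87, 9.71 and 9.60 against 10.65, 10.58 and 10.24, and was lower with -0.76 ± 0.12 (SE, adjusted p = 0.0183), 1 of 33 glycolysis and HIF1 genes. Of 34 immediate early and ERK feedback genes FOS was higher, and PHLDA1, a growth factor response gene, and KLF10, an early TGF-beta target, were lower, with -0.73 and -0.59. PHLDA1 was also below CALRwt in CALRins5, with -0.86 (adjusted p = 0.0358).

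For the blood lineage and remaining lists, the shares over all genes were 1.14% passing in either direction and 14% with an unadjusted p under 0.05 in limma. GFI1B, a repressor in erythroid and megakaryocytic development, was lower in CALRins5 with -0.50 (adjusted p = 0.0356), 1 of 14 erythroid factors. LYZ, the lysozyme of neutrophils and monocytes, was lower with -0.53 (adjusted p = 0.0462, or 0.058 with the block, 1 of 41 genes), TNFAIP3, a feedback inhibitor of NF-kB, with -0.52 (1 of 30), and ID2, an inhibitor of helix-loop-helix factors, with -0.76 (1 of 24). COL6A3 and ANXA3 were the 2 that passed of 53 matrix, protease and adhesion genes, whose median was -0.04. Of 21 JAK2-STAT5 genes CDKN1A, already named, was the one that passed, with STAT5A at 0.27, STAT5B at -0.18 and JAK2 at 0.17. Of 24 globin, red cell membrane and heme genes, 30 megakaryocyte and platelet genes, 42 interferon genes, 15 BCL2 family genes and 19 cancer-testis genes, 0 passed in limma (7, 8, 3, 1 and 0 at an unadjusted p under 0.05). FLI1, a megakaryocytic factor, was at -0.11.

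**Figure D4:**
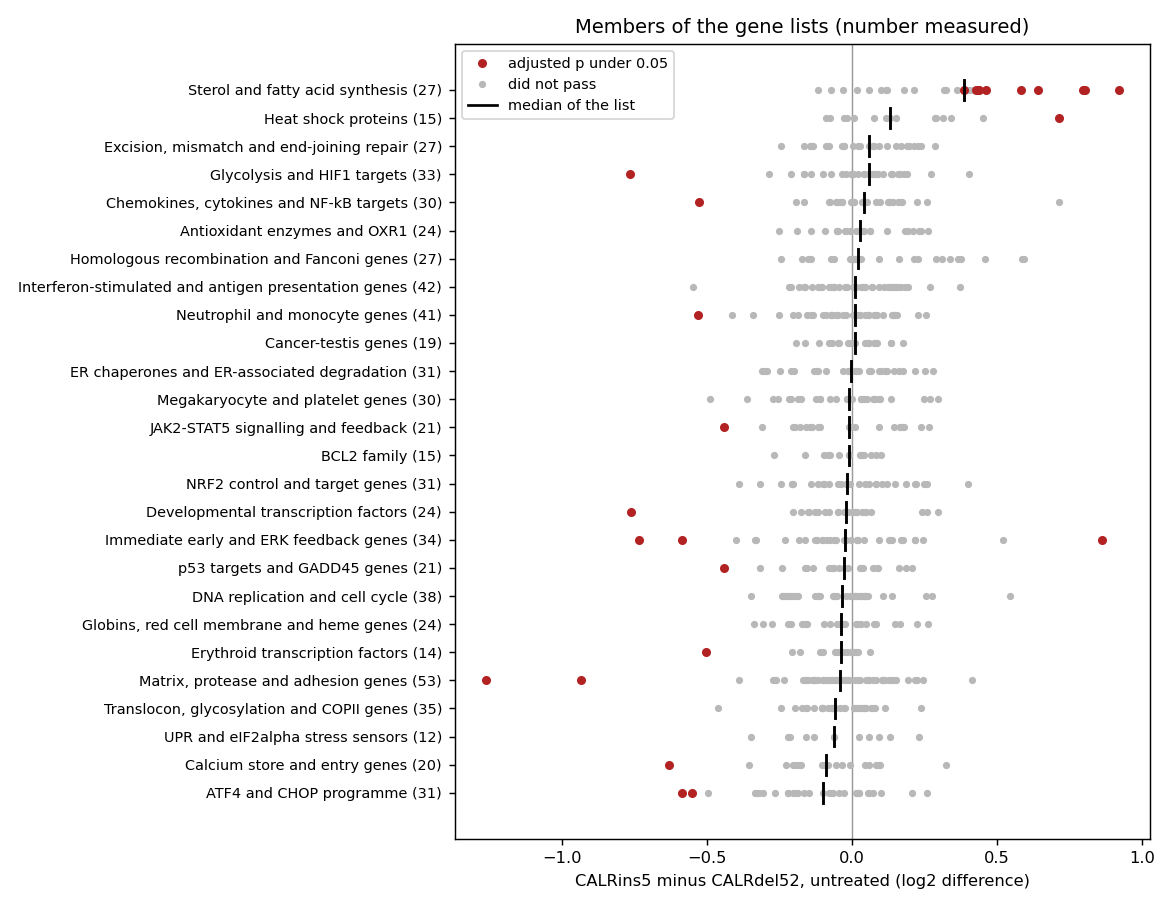
Log2 difference CALRins5 minus CALRdel52 in untreated cells (horizontal axis) of each measured member of 26 gene lists (rows, with the number measured). Points are genes by their brightest probe set, red where the adjusted p was under 0.05, and the bar is the median of the list. The sterol and fatty acid list has its median at 0.39, and the other medians lie between -0.10 and 0.13.

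The same comparison in cells exposed to MEL, made on arrays that the untreated comparison did not use, gave fewer calls. In a model of all 18 arrays, which made 535 calls in the untreated comparison, 10 probe sets were higher (0.0183%) and 12 were lower (0.022%) in CALRins5, 0.0403% of 54613. At an unadjusted p under 0.05 in limma the same model had 4460 probe sets with MEL and 5570 without. Without single MEL arrays of the mutants 7 to 27 probe sets passed. CALRdel52 replicate 3 and CALRins5 replicate 1 with MEL stood apart, with median correlations to the other MEL arrays of 0.9931 and 0.9933 against 0.9945 to 0.9956, and 13 passed without both. Of the 453 probe sets called without MEL in the model of untreated arrays alone, 8 also passed with MEL in the model of 18 arrays. These 8 are 36.4% of those called with MEL and 1.77% of the 453. Besides probe sets of ABCB1, TCN1, SCIN and ENPP3 these named 4 genes that were noticed after their values were seen. CDCA7L stood at 0.70 without and 0.83 with MEL, ANGPT1, a ligand of the TIE2 receptor, at 0.67 and 0.94, TCEAL7 at -0.64 and -0.996, and PLAT, the tissue plasminogen activator, at -0.56 and -0.69. TCN1 with MEL was at 9.80, 9.72 and 9.69 in CALRins5 and at 10.48, 10.40 and 10.49 in CALRdel52, a difference of -0.72 (adjusted p = 0.000572). ABCB1 was at 4.97, 5.08 and 4.86 against 5.96, 5.85 and 5.85, a difference of -0.92 (adjusted p = 0.000521). SCIN kept almost the same difference, with -1.09 against -1.12 without MEL.

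Of the 171 probe sets that were higher in untreated CALRins5, 83.0% differed in the same direction with MEL, as did 76.2% of the 282 that were lower. Over all probe sets the 2 differences had the same sign in 54.4%. The difference was smaller with MEL in 163 of the 171 and in 279 of the 282, and the median fell to 0.14 and -0.12. Since the probe sets were chosen for a large untreated difference, a smaller one in other arrays is given as a description. The sterol and fatty acid list had a median of 0.09 with MEL, with 18 of 27 differences above 0 and 0 of 27 passing in limma (4 at an unadjusted p under 0.05). For HMGCS1 the difference with MEL was 0.18, for STARD4 0.25, for DHCR7 0.16 and for FASN 0.29. The change of the difference with MEL passed for 0 of the 27 (11 at an unadjusted p under 0.05). Over all probe sets it passed for 8 (0.0146%), of which 6 had a higher value (0.011%) and 2 a lower value (0.00366%) in CALRins5 relative to CALRdel52 with MEL than without.

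**Figure D5:**
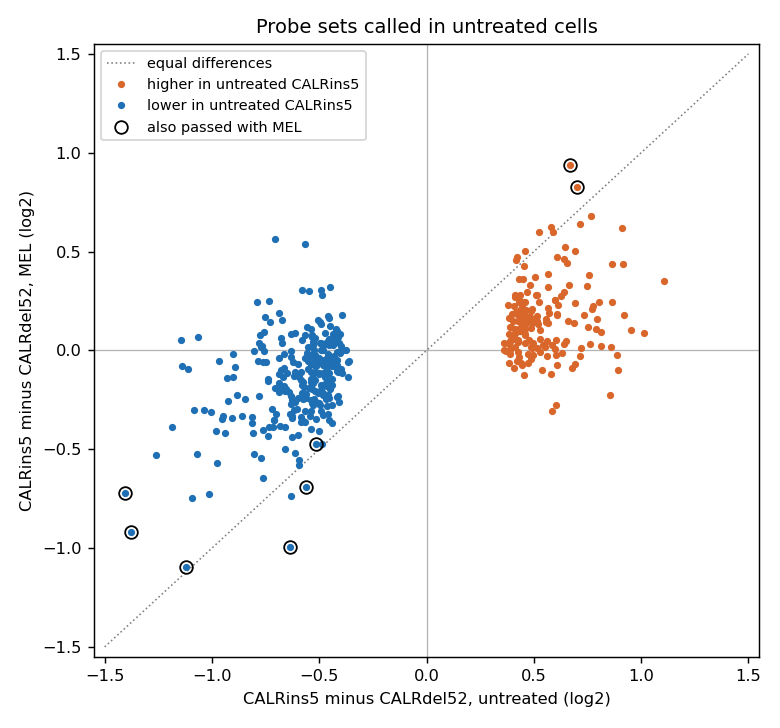
Log2 difference CALRins5 minus CALRdel52 with MEL (vertical axis) against the untreated difference (horizontal axis) for the 453 probe sets called in untreated cells. Open rings mark the 8 that also passed with MEL, and the dotted line marks equal differences. Most points lie between the dotted line and a MEL difference of 0.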

How the data were processed

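Total RNA of 18 samples was hybridised to arrays with the probe sets of the HG-U133 Plus array (the paper's supplement names another array type). The deposited values are log2 expression values that the authors obtained by RMA in Partek, 1 per probe set and array. It is unknown which arrays shared one normalization. Values were used as deposited, without a filter, and 62 control probe sets were left out of the 54675. The number of arrays limits the precision. Of the probe sets, 41091 name 1 gene, for 19775 genes. In lists each gene stands for its brightest probe set, by the mean over untreated arrays.

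Groups came from the sample labels. The replicate number was used as a block only in an alternative, since no label ties a number to one experiment. The model of the untreated comparison (limma 3.58.1, R 4.3.3, lmFit and eBayes) held 9 untreated arrays in 3 groups, and that of the MEL comparison and of its change held 18 arrays in 6 groups. P-values were adjusted by Benjamini-Hochberg across the 54613 probe sets. If replicates are technical, p-values reflect no more than variation among these arrays. The script was tested on simulated data. A difference with a positive sign is higher in CALRins5.

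Named genes were the 15 highest and 15 lowest called probe sets of distinct genes without overlap and with the higher mean above 5, up to 4 called members of each list, and genes named in the paper's results. The comparison, the 26 lists and this rule were chosen with earlier results of these data known. Alternatives were the replicate block, quantile normalization, centring, filters, variance models, other arrays in the model, an unadjusted p under 0.01, and arrays left out. Single arrays were left out only from the mutant groups. Some genes the rule picks are not reported here. Figures were drawn with matplotlib 3.10.9.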

Additional observations from a re-analysis of the deposited data

Results flagged for a closer look

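For 8 probe sets the difference between CALRins5 and CALRdel52 changed with MEL (limma interaction over 18 arrays, adjusted p under 0.05, 0.0146% of 54613), and each is given as the difference with MEL minus that without. HMCN1 changed by 1.2, from -1.15 in untreated cells to 0.05 with MEL, where CALRins5 arrays were at 6.41, 6.33 and 6.58 and CALRdel52 arrays at 6.39, 6.59 and 6.17. CALB1 changed by 1.13 in its brightest probe set, from -1.07 to 0.07, LINC00656 by 1.02, from -1.11 to -0.09, and TGFBR3, a co-receptor for TGF-beta, by 0.882, from -0.90 to -0.02. In these genes the lower level of CALRins5 was not seen with MEL. PHLDA1 changed by 0.985, from -0.73 to 0.25. ROBO2, an axon guidance receptor, changed by 1.14, from -0.38 (adjusted p = 0.15) to 0.76 (adjusted p = 0.0286). SCARB1 changed by -0.841, from 0.86 to 0.02, and a probe set with no gene name by -0.88, from 0.60 to -0.28. No probe set passed without any one CALRins5 MEL array, without CALRdel52 MEL replicate 3, or without untreated CALRins5 replicate 2 or 3 or CALRdel52 replicate 1 (3080 to 4049 at an unadjusted p under 0.05 in limma), and 32 passed without untreated CALRdel52 replicate 3.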

How the results depend on the processing

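The 453 untreated calls became 428 with the replicate number as a block (334 shared), 523 after repeated quantile normalization and 352 after centring each array on its median. They became 1025 among probe sets above the median level only, 1555 with the trend and robust options, 298 without moderation, 124 with the 6 mutant arrays only and 2475 at an unadjusted p under 0.01. One array left out gave 80 to 1135, and one replicate number 0 to 10 (0 without replicate 1, where 4376 had an unadjusted p under 0.05 in limma). With the block 39 of the 42 named calls were kept, and PSPH, ATP2C1 and LYZ had adjusted p of 0.0521, 0.0636 and 0.058. The sterol count of 10 became 6 with the block, 6 after centring, 6 without moderation, 15 with trend and robust options, 3 with the 6 mutant arrays only, 3 to 9 without one array and 0 without one replicate number. The 14 genes among bright probe sets only were within 1.5 times of it. The sterol count was recomputed under these alternatives after seeing the data.

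With MEL the 22 calls became 35 after quantile normalization, 34 with trend and robust options, 4 with the 9 MEL arrays only, 7 to 27 without one array, 0 to 3 without one replicate number and 13 without both MEL arrays that stood apart, an alternative added after seeing the data. The 8 calls for the change with MEL became 13 after quantile normalization, 19 among bright probe sets, 29 with trend and robust options, 33 without moderation, 0 with the 12 mutant arrays only, 0 to 32 without one array, 0 without one replicate number and 0 without both arrays. The cause was not tested.

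Deviations of same-numbered arrays correlated at 0.062, 0.177 and 0.225 between CALRins5 and CALRdel52. Over all 3 groups 9 of 9 same-numbered pairs lay above 0 (7 above 0.1), and 15 of 18 differently numbered pairs below 0, a hint from the data and not from the design. Of the uncalled genes, DNAJB9, XBP1, EIF2S1 and SOD1 passed with trend and robust options, DNAJB9 and XBP1 also among bright probe sets and EIF2S1 also without moderation, and leaving out arrays turned the sign of 4 in some cases, over ranges of -0.106 to 0.125 for CALR, -0.0819 to 0.0145 for ATF4, -0.0761 to 0.201 for SOD2 and -0.053 to 0.0708 for GSR.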
